A study of Mus musculus with 8 samples.

Results

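The cell cycle and mitosis genes described here are 38 genes of the mouse myocardium, chosen as an exact match of gene name to a list of 38 members, and all 38 were found among the 33249 genes of the deposited table. They fall into 11 replication factors and 3 G1/S regulators, which act before and during S phase, 18 mitosis genes, 3 D-type cyclins and 3 inhibitors of cyclin-dependent kinases (CDKs). RNA sequencing covered 8 libraries of myocardium, with 2 per group, and the groups are labelled fl/fl-Sham and CKO-Sham for the sham hearts and fl/fl-MI and CKO-MI for the infarcted ones. All mice carried Piezo1 fl/fl, that is, floxed alleles of the mechanosensitive cation channel Piezo1. The Piezo1 Cko mice, called CKO, also carried a Myh6-MerCreMer transgene, a Cre recombinase that the cardiomyocyte promoter Myh6 drives and tamoxifen activates. The fl/fl controls were littermates without the transgene, and the labels name their genotype as WT. Whether these controls received tamoxifen is not stated in the methods. Myocardial infarction (MI) was made in young adult mice by tying off the left anterior descending artery for good, and the MI hearts were taken at day 42. Sham mice underwent surgery without ligation, and nothing in the labels says whether a library came from 1 heart or from several. The p-values therefore measure the spread between these libraries.

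Levels between libraries are given as CPM, counts scaled to the size of the library after TMM normalization. Levels between genes are given as FPKM, the authors' value per length of gene and size of library. Counts per library summed to between 73821747 and 88117573, and mitochondrially encoded genes took 43.1% to 46.4% of them in sham libraries and 19.9% to 24.2% in MI libraries. Cardiomyocyte markers were present in every library, with a summed level of 20238 to 45377 CPM over 8 genes. The targeted gene Piezo1 had 71.4 and 81.1 CPM in fl/fl-Sham, 75.5 and 85.8 CPM in CKO-Sham, 53.7 and 64.4 CPM in fl/fl-MI, as well as 57.4 and 65.2 CPM in CKO-MI. It was thus not lower in the libraries labelled CKO, although a count per gene pools every exon and every cell type. Esr1, whose hormone-binding part the transgene joins to Cre, was at 721 and 406 CPM in CKO-MI and 329 CPM in fl/fl-MI 2, against 5.43 to 8.26 CPM in the other 5 libraries, among them both labelled CKO-Sham. The Esr1 levels thus went against the genotype labels of fl/fl-MI 2, CKO-Sham 1 and CKO-Sham 2, and every direction between genotypes below rests on the labels as deposited. The library labelled fl/fl-MI 2 also stood apart in 5 atrial markers, with a sum of 19738 CPM against 133 to 4539 CPM in the other libraries. Calls and medians over the mitosis genes that rest on it are given with and without it.

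A cell enters the cycle when mitogen signals raise D-type cyclins, which with CDK4 and CDK6 inactivate the retinoblastoma protein and free the E2F transcription factors. E2F targets then license and copy the DNA in S phase, and a later set of genes, switched on through B-MYB and FOXM1, builds the spindle and divides the cell. Most adult cardiomyocytes have left the cycle soon after birth, so that transcripts of dividing cells in adult myocardium are known to come largely from fibroblasts, endothelial cells and immune cells.

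The promoters are shown first because the late set and the S phase set are known for short motifs that differ in part. Promoters came from RefSeq (GRCm38.p6), each with 250 bases before and 50 bases after the start of a transcript, and 30 of the 38 members were matched. Mcm4, Ccnd2, Ccne2, Kif20a, Aurkb, Tpx2, Ccna2 and Ccnd1 were not matched. The motifs were searched on both strands, and none of them contains another. The cell cycle homology region (CHR) was searched as TTTGAA and, in its variant form, as TTCGAA. The box of that name was searched as CCAAT. E2F sites were searched as TTTCCCGC, TTTCGCGC, TTTGCCGC and TTTGGCGC. A CHR was found in 13 of 15 promoters of mitosis genes (86.7%) and in 19.2% of all 32851 promoters of the same length. The 15 belong to 14 genes, as Prc1 has overlapping promoters that hold the same matches and are each counted. The 11 promoters of replication factors below belong to 10 genes. CCAAT boxes were found in 14 of the 15 (93.3%) and in 37.4% of all promoters, and both motifs together in 13 of the 15 and in 7.52% of all. Among the 11 promoters of replication factors, 5 (45.5%) held an E2F motif, against 2.26% of all promoters, 3 held a CHR and 10 (90.9%) held a CCAAT box, so that this box was about as frequent there as in the mitosis genes. An E2F motif was found in 1 of the 15 promoters of mitosis genes. A match to these letters is a description of the sequence and not a measured binding site.

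The promoters of 3 mitosis genes and 2 replication factors are printed from 5′ to 3′ with every match to a motif in capitals. In the first 3, runs of 6 capitals mark the CHR and runs of 5 the CCAAT box, each as searched or as its reverse complement. In the last 2, the longer capitals mark E2F motifs, of which neighbouring ones share letters, beside CCAAT boxes. Their positions on GRCm38.p6 are chr7:135716330-135716629 on the minus strand for Mki67, chr11:99024140-99024439 on the minus strand for Top2a, chr9:70421505-70421804 on the minus strand for Ccnb2, chr8:75109259-75109558 on the plus strand for Mcm5, and chr1:128359656-128359955 on the minus strand for Mcm6.
Mki67: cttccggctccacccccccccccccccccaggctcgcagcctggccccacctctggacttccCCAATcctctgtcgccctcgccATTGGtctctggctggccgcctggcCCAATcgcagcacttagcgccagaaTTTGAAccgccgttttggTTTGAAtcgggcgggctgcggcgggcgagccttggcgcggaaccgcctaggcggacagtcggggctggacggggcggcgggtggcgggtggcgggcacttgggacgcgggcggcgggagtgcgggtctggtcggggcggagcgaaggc
Top2a: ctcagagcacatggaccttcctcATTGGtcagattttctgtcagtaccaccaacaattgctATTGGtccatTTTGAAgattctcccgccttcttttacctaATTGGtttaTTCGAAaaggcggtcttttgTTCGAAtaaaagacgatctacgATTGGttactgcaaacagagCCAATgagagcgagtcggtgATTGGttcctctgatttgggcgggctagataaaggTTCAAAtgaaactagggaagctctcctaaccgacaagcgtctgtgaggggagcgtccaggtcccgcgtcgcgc
Ccnb2: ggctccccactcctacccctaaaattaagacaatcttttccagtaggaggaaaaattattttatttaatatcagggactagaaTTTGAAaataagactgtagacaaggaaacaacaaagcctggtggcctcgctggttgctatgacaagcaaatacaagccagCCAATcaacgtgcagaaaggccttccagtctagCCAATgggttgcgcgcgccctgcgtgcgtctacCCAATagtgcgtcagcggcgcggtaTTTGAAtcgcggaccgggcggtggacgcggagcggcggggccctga
Mcm5: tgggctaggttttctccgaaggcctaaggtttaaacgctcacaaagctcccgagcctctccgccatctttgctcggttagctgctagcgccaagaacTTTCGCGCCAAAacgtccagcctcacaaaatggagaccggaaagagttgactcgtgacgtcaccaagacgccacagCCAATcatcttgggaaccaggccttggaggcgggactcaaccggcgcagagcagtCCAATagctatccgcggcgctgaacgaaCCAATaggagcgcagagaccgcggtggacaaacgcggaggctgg
Mcm6: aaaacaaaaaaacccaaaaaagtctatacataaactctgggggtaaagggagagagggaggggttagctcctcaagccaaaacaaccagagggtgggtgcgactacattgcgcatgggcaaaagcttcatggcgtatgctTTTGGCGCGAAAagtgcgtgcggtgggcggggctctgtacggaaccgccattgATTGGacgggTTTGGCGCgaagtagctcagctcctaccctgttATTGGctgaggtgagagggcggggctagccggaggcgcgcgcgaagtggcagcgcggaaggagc
In the Mki67 promoter the CHR copies began 116 and 98 bases before the start, and its CCAAT boxes 188, 166 and 141 bases before it. In the Mcm6 promoter the E2F motifs began 110, 106 and 47 bases before the start.

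Per length, the levels of the 38 members ranged widely, also within a role. The CDK inhibitor Cdkn1a (p21) had the highest level with a mean of 24.3 FPKM over the 8 libraries, followed by Ccnd1 (11.5), the replication clamp Pcna (10.8), Ccnd2 (10.2) and Ccnd3 (5.38). Every mitosis gene lay between 0.301 FPKM (Bub1, a spindle checkpoint kinase) and 1.57 FPKM (Cdc20, an activator of the anaphase-promoting complex). The lowest was Cdkn2a, with 0.159 FPKM. The low counts behind mitosis genes (a mean of 92.4 to 968 counts per library) limit the precision of their values.

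**Figure D1:**
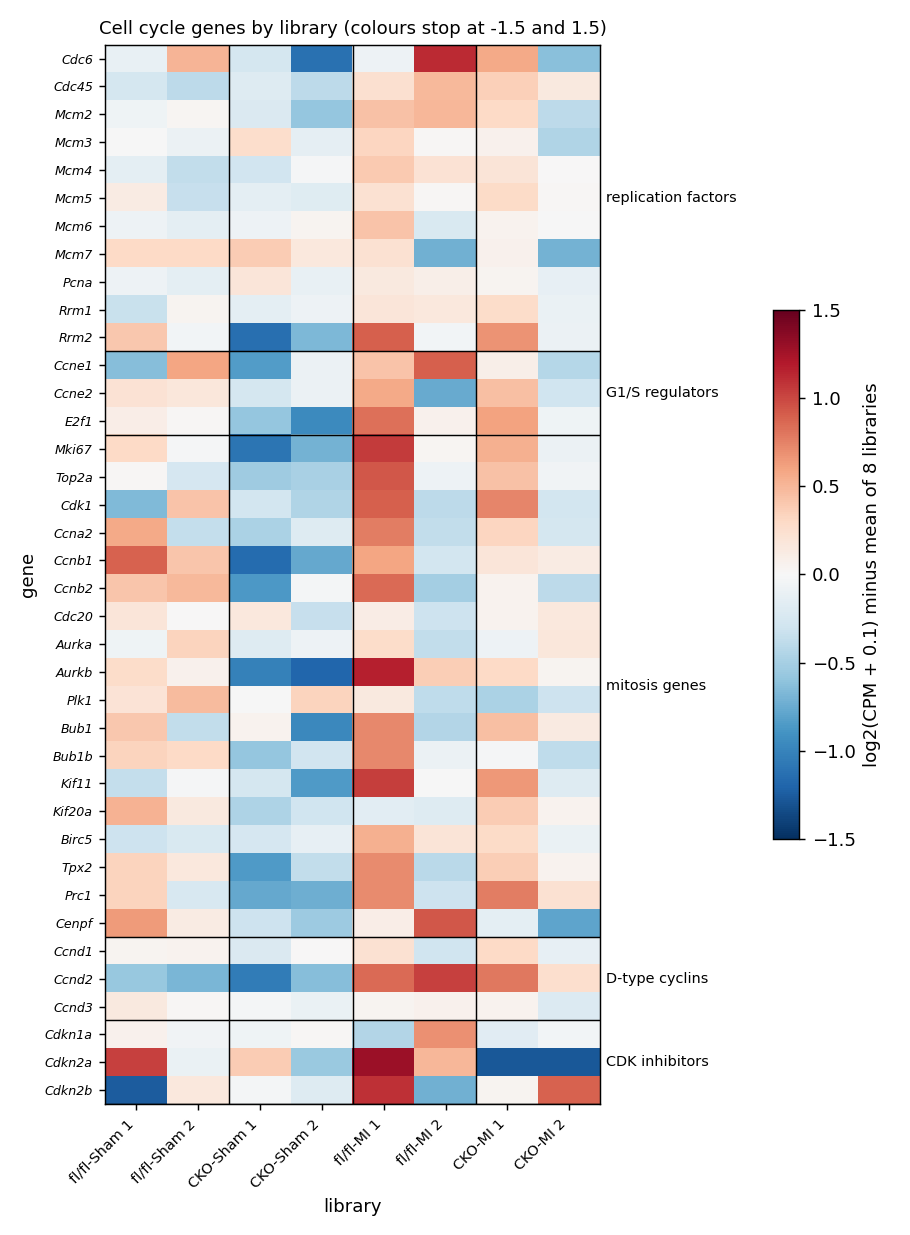
Level of each of the 38 members (rows, grouped by role) in each of the 8 libraries (columns), as log2(CPM + 0.1) minus the gene's mean over the libraries, with colours that stop at -1.5 and 1.5. Ccnd2 is red in the MI libraries and blue in the sham libraries, and most mitosis genes are red in fl/fl-MI 1, which holds the highest value of 11 of the 18, and blue in both CKO-Sham libraries.

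MI was compared with sham over both genotypes, with 4 libraries against 4. The cyclin Ccnd2 rose 2.78-fold, the mitotic kinase Aurkb 2.12-fold and the proliferation marker Mki67 1.76-fold, and these were the 3 of 37 tested members that passed edgeR's test at a Benjamini-Hochberg adjusted p under 0.05. No member (0) passed in the lower direction. At an unadjusted p under 0.05, 10 members were higher and 0 lower, where 25.3% and 20.3% of all genes were (DESeq2 called 7 higher and 0 lower after adjustment). Of all 17612 genes tested, 19.2% were called higher and 14.8% lower, so that the 3 members called, 2 of the 18 mitosis genes and 1 of the 3 D-type cyclins, made up a smaller share than the background in either direction. The direction was nonetheless uneven, as 32 of the 37 members had a positive log2 fold change, against 52.2% of all genes. Their median log2 fold change was 0.37 and that of all genes 0.04. With a change of at least 2-fold and an unadjusted p under 0.05, 2 members were called, Ccnd2 and Aurkb, and 8.62% of all genes were called higher by this rule. Levels are those of whole tissue, in which fewer cells of a type and less RNA per cell cannot be told apart.

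The D-type cyclins bind CDK4 and CDK6 and open the way into the cycle. Ccnd2 lies on chromosome 6 from 127125162 to 127152193 (GRCm38). It had 53.04 and 48.7 CPM in fl/fl-Sham, 37.96 and 50.4 CPM in CKO-Sham, 141 and 160 CPM in fl/fl-MI, as well as 136 and 93.6 CPM in CKO-MI. Every MI library lay above every sham library, and the mean was 47.5 ± 6.62 CPM (SD, n = 4) in sham and 132.9 ± 28.2 CPM (SD, n = 4) after MI. The log2 fold change was 1.47 (standard error 0.16, edgeR, Benjamini-Hochberg adjusted p = 0.0012). It was 1.57 (standard error 0.23, edgeR adjusted p = 0.0091) within fl/fl and 1.38 (standard error 0.23, edgeR adjusted p = 0.010) within CKO, and the difference between the genotypes was -0.19 (standard error 0.33, edgeR adjusted p = 0.90). The calls within a genotype did not hold without every library. Within fl/fl the call was lost without fl/fl-Sham 1 and without fl/fl-Sham 2. Within CKO it was lost without CKO-Sham 1, without CKO-Sham 2 and without CKO-MI 1. In each of those fits calls over all genes also became fewer. The change of Ccnd2 with 1 library left out ran from 1.47 to 1.63 within fl/fl and from 1.04 to 1.62 within CKO. With each of the 8 libraries left out in turn, the change over both genotypes lay between 1.28 and 1.58, and the adjusted p in edgeR between 0.00049 and 0.012.

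Its paralogs did not pass that test. Ccnd1 had 55.8 and 56.1 CPM in fl/fl-Sham, 46.6 and 54.4 CPM in CKO-Sham, 63.7 and 44.2 CPM in fl/fl-MI, as well as 66.8 and 49.6 CPM in CKO-MI. The MI libraries of Ccnd1 lay on both sides of the sham libraries, and the log2 fold change was 0.07 (standard error 0.16, edgeR adjusted p = 0.74). Ccnd3 had 52.8 and 48.6 CPM in fl/fl-Sham, 47.0 and 44.7 CPM in CKO-Sham, 49.3 and 49.9 CPM in fl/fl-MI, as well as 49.8 and 41.5 CPM in CKO-MI, with a log2 fold change of -0.02 (standard error 0.10, edgeR adjusted p = 0.90). Both values depend on the scaling. On the authors' FPKM all genes had a median shift of 0.29 after MI on the log2(FPKM + 1) scale, and there Ccnd1 (0.54, adjusted p = 0.032 in limma) and Ccnd3 (0.43, adjusted p = 0.011 in limma) were higher after MI, while Ccnd2 (1.77) stood well above them. Of the 3, Ccnd2 was thus the 1 that passed on both scales.

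**Figure D2:**
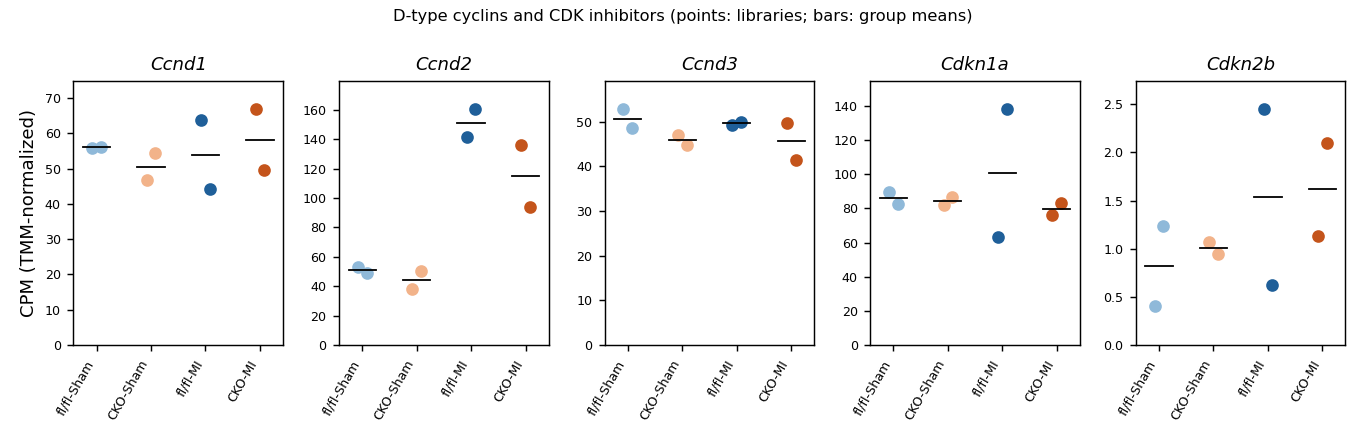
CPM of the 3 D-type cyclins and of the CDK inhibitors Cdkn1a and Cdkn2b in each library (points) and the mean of each group (bars), on axes that start at 0. For Ccnd2 the 4 MI libraries lie between 93.6 and 160 CPM, all above the sham libraries, while for the other genes the MI and sham libraries overlap.

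The CDK inhibitors block these kinases. Cdkn1a, a target of p53, had 89.7 and 82.3 CPM in fl/fl-Sham, 81.7 and 86.7 CPM in CKO-Sham, 63.1 and 138 CPM in fl/fl-MI, as well as 76.3 and 82.9 CPM in CKO-MI. The sham libraries lay close together, and the fl/fl-MI libraries held both the lowest and the highest value of the 8. Its log2 fold change after MI was 0.07 (standard error 0.23, edgeR adjusted p = 0.83), and -0.26 (adjusted p = 0.056 in edgeR) without the library labelled fl/fl-MI 2. Cdkn2b (p15) had 0.405 and 1.24 CPM in fl/fl-Sham, 1.07 and 0.944 CPM in CKO-Sham, 2.45 and 0.624 CPM in fl/fl-MI, as well as 1.13 and 2.10 CPM in CKO-MI. Its MI libraries also spanned the sham range, with a log2 fold change of 0.79 (standard error 0.54, edgeR adjusted p = 0.30). Cdkn2a, which encodes p16INK4a and p19ARF, was the member not tested, because its mean fell below 20 counts per library. It had 23 and 8 counts in fl/fl-Sham, 16 and 4 in CKO-Sham, 51 and 20 in fl/fl-MI, and 0 and 0 in CKO-MI. About 4 counts were assumed to stand for 1 read pair. With CKO-MI set to a floor of 3 read pairs per library, the observed mean of the fl/fl-MI libraries was 2.68-fold that of CKO-MI. The floor allows for counting error in CKO-MI and not in fl/fl-MI, and no library had more than 12.8 read pairs. The library fl/fl-MI 2 alone, at 0.240 CPM, stood nearer to the CKO-MI floors of 0.145 and 0.125 CPM.

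Among the G1/S regulators, E2f1, the transcription factor of the S phase set, had 1.77 and 1.68 CPM in fl/fl-Sham, 1.07 and 0.800 CPM in CKO-Sham, 3.00 and 1.73 CPM in fl/fl-MI, as well as 2.55 and 1.57 CPM in CKO-MI. Within each genotype at least 1 MI library lay above both sham libraries, and the groups overlapped over both genotypes. The log2 fold change was 0.80 (standard error 0.30, edgeR adjusted p = 0.081), and 0.97 (adjusted p = 0.028 in edgeR) without fl/fl-MI 2. Ccne1 and Ccne2, the E-type cyclins that activate CDK2, were called in neither direction. Ccne1 had 0.489 and 1.28 CPM in fl/fl-Sham, 0.416 and 0.768 CPM in CKO-Sham, 1.14 and 1.61 CPM in fl/fl-MI, as well as 0.880 and 0.583 CPM in CKO-MI. Ccne2 had 3.96 and 3.85 CPM in fl/fl-Sham, 2.82 and 3.20 CPM in CKO-Sham, 5.12 and 1.98 CPM in fl/fl-MI, as well as 4.69 and 2.75 CPM in CKO-MI. For Ccne2 replicate 1 of each MI group lay above all sham libraries and replicate 2 below, and the log2 fold changes of Ccne1 and Ccne2 were 0.47 and 0.08 (standard errors 0.42 and 0.33).

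The replication factors license origins, unwind DNA and supply nucleotides. None of the 11 (0) passed edgeR's test after MI at an adjusted p under 0.05, 3 had an unadjusted p under 0.05, and DESeq2 called 2. Their median log2 fold change was 0.28, with 9 of 11 positive. Cdc45, a subunit of the replicative helicase, had 1.79 and 1.63 CPM in fl/fl-Sham, 1.89 and 1.63 CPM in CKO-Sham, 2.58 and 3.10 CPM in fl/fl-MI, as well as 2.82 and 2.42 CPM in CKO-MI. All MI libraries of Cdc45 lay above all sham libraries, and the log2 fold change of 0.65 (standard error 0.21) had an adjusted p = 0.051 in edgeR, just over the threshold. Mcm4, another helicase subunit, had 8.52 and 7.28 CPM in fl/fl-Sham, 7.74 and 9.29 CPM in CKO-Sham, 12.4 and 11.01 CPM in fl/fl-MI, as well as 10.8 and 9.48 CPM in CKO-MI. Again the MI libraries did not overlap the sham libraries, and the log2 fold change was 0.41 (standard error 0.14, edgeR adjusted p = 0.057). Such a separation upward was found for 2 replication factors and 4 members in all, against 19.1% of all genes tested.

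Rrm2, the regulated subunit of ribonucleotide reductase, had 4.27 and 3.12 CPM in fl/fl-Sham, 1.41 and 1.97 CPM in CKO-Sham, 6.04 and 3.11 CPM in fl/fl-MI, as well as 5.15 and 3.00 CPM in CKO-MI. The CKO-Sham libraries were the lowest, and the MI libraries overlapped those of fl/fl-Sham. The log2 fold change of Rrm2 was 0.79 (standard error 0.31, edgeR adjusted p = 0.089). Its partner Rrm1 had 13.0 and 16.9 CPM in fl/fl-Sham, 14.8 and 15.6 CPM in CKO-Sham, 18.7 and 18.3 CPM in fl/fl-MI, as well as 19.9 and 15.3 CPM in CKO-MI. Here 3 MI libraries lay above all sham libraries, with a log2 fold change of 0.26 (standard error 0.14, edgeR adjusted p = 0.19). Mcm2 had 5.65 and 6.04 CPM in fl/fl-Sham, 5.08 and 3.92 CPM in CKO-Sham, 8.03 and 8.37 CPM in fl/fl-MI, as well as 7.31 and 4.48 CPM in CKO-MI, with a log2 fold change of 0.44 (standard error 0.20, edgeR adjusted p = 0.13). Only CKO-MI 2 kept Mcm2 from a full separation. Mcm7 had 16.7 and 16.6 CPM in fl/fl-Sham, 17.7 and 15.1 CPM in CKO-Sham, 15.9 and 8.21 CPM in fl/fl-MI, as well as 14.1 and 8.26 CPM in CKO-MI. Replicate 2 of both MI groups was low, while replicate 1 was near or within the sham range, and the log2 fold change was -0.51 (standard error 0.25, edgeR adjusted p = 0.16). With each library left out in turn it ran from -0.82, without fl/fl-MI 1, to -0.31. The value depends on the scaling, as the mean FPKM of Mcm7 was 3.01 in sham and 3.08 after MI. In the fit of all 8 libraries the log2 fold changes of the subunits of the MCM2-7 helicase thus ran from -0.51 (Mcm7) to 0.44 (Mcm2). None of these subunits was called in that fit. The remaining factors Cdc6, Mcm3, Mcm5, Mcm6 and Pcna had log2 fold changes between -0.01 and 0.62.

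The mitosis genes build the spindle, check the attachment of chromosomes and cut the cell apart. Aurkb, the kinase of the chromosomal passenger complex, had 1.20 and 1.02 CPM in fl/fl-Sham, 0.429 and 0.368 CPM in CKO-Sham, 2.31 and 1.28 CPM in fl/fl-MI, as well as 1.22 and 0.999 CPM in CKO-MI. The MI libraries lay above the sham libraries of their own genotype, and the 2 CKO-Sham libraries were by far the lowest. The log2 fold change was 1.08 (standard error 0.31, edgeR adjusted p = 0.033). Mki67, a chromosome surfactant of dividing cells, had 13.2 and 10.6 CPM in fl/fl-Sham, 4.96 and 6.49 CPM in CKO-Sham, 22.2 and 10.9 CPM in fl/fl-MI, as well as 15.6 and 10.1 CPM in CKO-MI. In fl/fl only replicate 1 stood above both sham libraries of its genotype, and in CKO both did. The log2 fold change was 0.82 (standard error 0.27, edgeR adjusted p = 0.0498), so that Mki67 passed by a small margin. With each library left out in turn the adjusted p in edgeR ran from 0.0042 to 0.17 for Mki67 and from 0.011 to 0.11 for Aurkb, and both passed only without fl/fl-MI 2.

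Top2a, the topoisomerase that untangles sister chromatids, had 7.42 and 6.12 CPM in fl/fl-Sham, 5.03 and 5.21 CPM in CKO-Sham, 14.04 and 6.97 CPM in fl/fl-MI, as well as 9.99 and 7.08 CPM in CKO-MI. Its MI libraries lay above the sham libraries except for an overlap at fl/fl-Sham 1, and the log2 fold change was 0.68 (standard error 0.25, edgeR adjusted p = 0.070). Prc1, which bundles the microtubules of the midzone, had 4.52 and 2.99 CPM in fl/fl-Sham, 2.05 and 2.10 CPM in CKO-Sham, 5.89 and 2.86 CPM in fl/fl-MI, as well as 6.13 and 4.17 CPM in CKO-MI. Within CKO the MI libraries of Prc1 lay above the sham libraries, and within fl/fl they overlapped. Its log2 fold change was 0.77 (standard error 0.29, edgeR adjusted p = 0.084). Kif11, the motor that pushes the spindle poles apart, had 2.01 and 2.58 CPM in fl/fl-Sham, 2.15 and 1.41 CPM in CKO-Sham, 5.45 and 2.59 CPM in fl/fl-MI, as well as 4.16 and 2.27 CPM in CKO-MI. Replicate 1 of each MI group stood high and replicate 2 close to the top of the sham range, with a log2 fold change of 0.83 (standard error 0.34, edgeR adjusted p = 0.10). Plk1, the polo-like kinase of mitotic entry, had 2.04 and 2.49 CPM in fl/fl-Sham, 1.74 and 2.24 CPM in CKO-Sham, 1.96 and 1.33 CPM in fl/fl-MI, as well as 1.24 and 1.39 CPM in CKO-MI. It was the mitosis gene with the lowest log2 fold change, -0.53 (standard error 0.25, edgeR adjusted p = 0.15), and on log2(FPKM + 1) its change was 0.0049 against 0.29 for all genes.

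Of the 18 mitosis genes, 16 had a positive log2 fold change and the median was 0.39. This median depended on single libraries, most of all those of fl/fl-MI. It was 0.57, with 6 genes called, without fl/fl-MI 2, and 0.06, with 11 of 18 positive and 0 called, without fl/fl-MI 1, a fit in which 48.8% of all genes were positive, 21.4% were called higher and 19.9% lower. Without CKO-MI 1 it was 0.25. Over all members 10 were called higher in edgeR without fl/fl-MI 2, namely Ccnd2, Aurkb, Mki67, Top2a, Prc1, Kif11, Tpx2, E2f1, Mcm4 and Rrm2. In that fit 24.1% of all genes were called higher. On log2(FPKM + 1) in limma 20 members were called higher, where 41.6% of all genes were, and on log2(FPKM + 0.1) 18 members were, where 42.8% of all genes were.

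**Figure D3:**
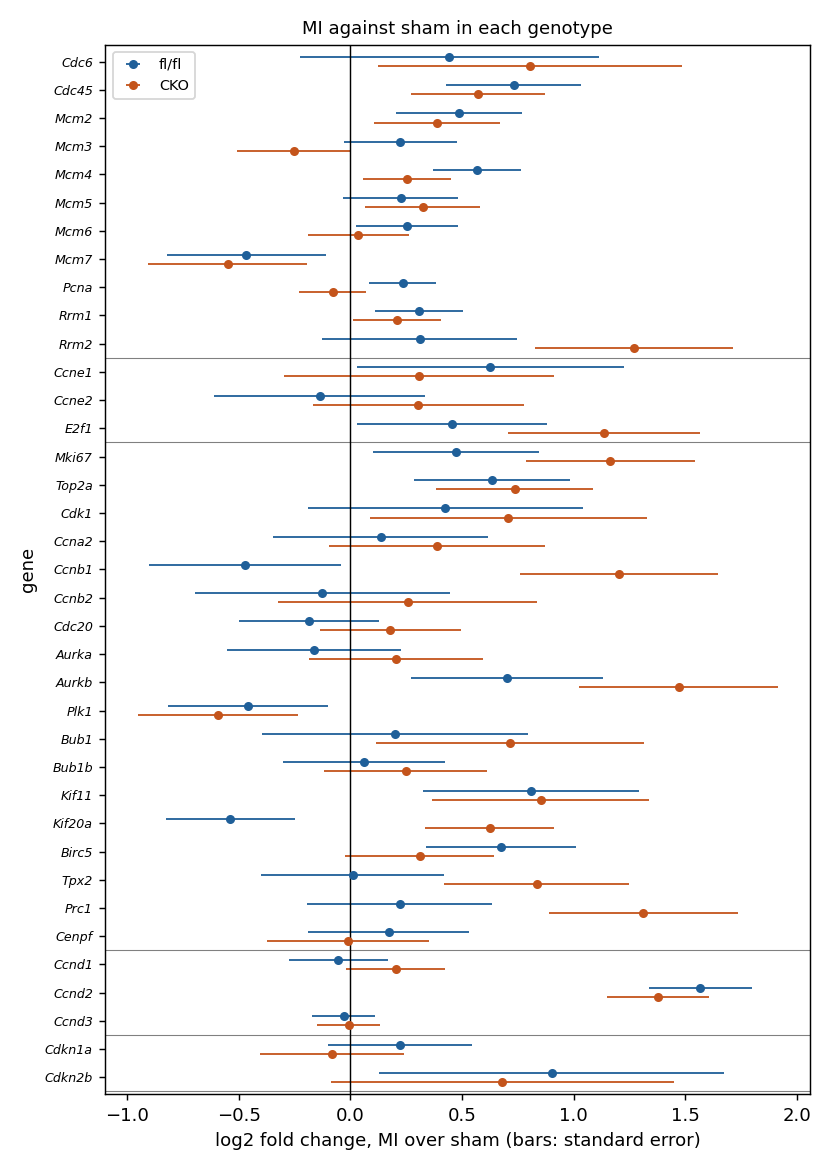
Log2 fold change of MI over sham (x axis) for the 37 tested members (y axis, by role), within fl/fl (blue) and within CKO (orange), with bars of 1 standard error. Ccnd2 stands apart at 1.57 and 1.38. Several members, among them Ccnb1, Kif20a, Ccnb2, Aurka and Cdc20, lie on opposite sides of 0 in the genotypes, and the bars of most members overlap.

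Within each genotype the test set 2 MI libraries against 2 sham libraries. Ccnd2 was the 1 member called higher in fl/fl and the 1 called in CKO, where 7.74% and 10.7% of all genes were called higher, and 0 members were called lower, against 6.15% and 8.34% of all genes (edgeR). At an unadjusted p under 0.05 in edgeR, 3 members were higher in fl/fl and 7 in CKO, where 18.6% and 19.1% of all genes were, and 0 were lower in either, where 13.8% and 16.3% of all genes were (DESeq2 called 1 and 5 higher after adjustment). With a change of at least 2-fold and an unadjusted p under 0.05, 1 member was called higher in fl/fl, against 8.56% of all genes. By the same rule 7 were called higher in CKO, against 7.73% of all genes. Those 7 were Ccnd2, Aurkb (1.47), Prc1 (1.31), Rrm2 (1.27), the mitotic cyclin Ccnb1 (1.20), Mki67 (1.16) and E2f1 (1.14). Without fl/fl-MI 2, 3 members were called higher in fl/fl and 7 in CKO after adjustment in edgeR, where 13.4% and 19.0% of all genes were. For the mitosis genes the median change on the log2 scale was 0.15 in fl/fl, with 12 of 18 positive, and 0.67 in CKO, with 16 of 18 positive. The value in fl/fl turned with the library left out. It was 0.53, with 14 positive, without fl/fl-MI 2 and -0.47, with 4 positive, without fl/fl-MI 1, and also -0.05 without fl/fl-Sham 2 and 0.28 without fl/fl-Sham 1. The value in CKO ran from 0.30 (without CKO-MI 1) to 0.82 (without CKO-MI 2). Both CKO-MI libraries lay above both CKO-Sham libraries for 11 of the 18, where 34.9% of all genes did. In fl/fl this was so for 3 of the 18, where 31.3% of all genes did.

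The genotypes were compared in sham hearts, 2 libraries against 2. Mitosis genes had lower levels in the libraries labelled CKO-Sham, 17 of 18 of them with a median log2 fold change of -0.63, while replication factors had a median of 0.03, which ran from -0.09 to 0.11 with each library left out in turn. No member (0) passed edgeR's test at an adjusted p under 0.05 in this comparison, nor in DESeq2, and of all genes 0.0% were called higher and 0.00568% lower. Both CKO-Sham libraries lay below both fl/fl-Sham libraries for 11 of the 18 mitosis genes and for 3 of the 11 replication factors, where 24.1% of all genes did. At an unadjusted p under 0.05 in edgeR 5 members were lower and 0 higher, where 2.15% of all genes were lower and 1.7% higher. These were Ccnb1 (-1.75, standard error 0.45), Aurkb (-1.47, standard error 0.45), Rrm2 (-1.13, standard error 0.44), Mki67 (-1.06, standard error 0.38) and Kif20a (-0.75, standard error 0.29), each with an adjusted p = 1 in edgeR. Their unadjusted p in edgeR ran from 0.0055 for Ccnb1 to 0.038 for Rrm2, and 4 of them were also past 2-fold, where 0.619% of all genes were lower by both criteria. These values come from the fit of all 8 libraries, which shares its estimate of the spread over all groups. Replicates differed more in the MI groups than in the sham groups. A fit of only the 4 sham libraries called 0.256% of all genes higher and 0.517% lower, and 0 members.

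Ccnb1, on chromosome 13 from 100778650 to 100786570 (GRCm38), is the cyclin that activates CDK1 at the start of mitosis. It had 2.68 and 1.89 CPM in fl/fl-Sham, 0.577 and 0.784 CPM in CKO-Sham, 2.15 and 1.14 CPM in fl/fl-MI, as well as 1.60 and 1.53 CPM in CKO-MI. The CKO-Sham libraries were the lowest of the 8, and the CKO-MI libraries lay within the range of fl/fl-MI. Kif20a, a kinesin of cytokinesis, had 4.25 and 3.26 CPM in fl/fl-Sham, 2.11 and 2.37 CPM in CKO-Sham, 2.63 and 2.54 CPM in fl/fl-MI, as well as 3.84 and 3.05 CPM in CKO-MI. Its sham groups and its MI groups were both separated, in opposite directions. The other mitosis genes had an unadjusted p over 0.05 in edgeR, and Birc5, an inhibitor of apoptosis that also serves the chromosomal passenger complex, was the 1 with a positive value (0.09, standard error 0.34).

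**Figure D4:**
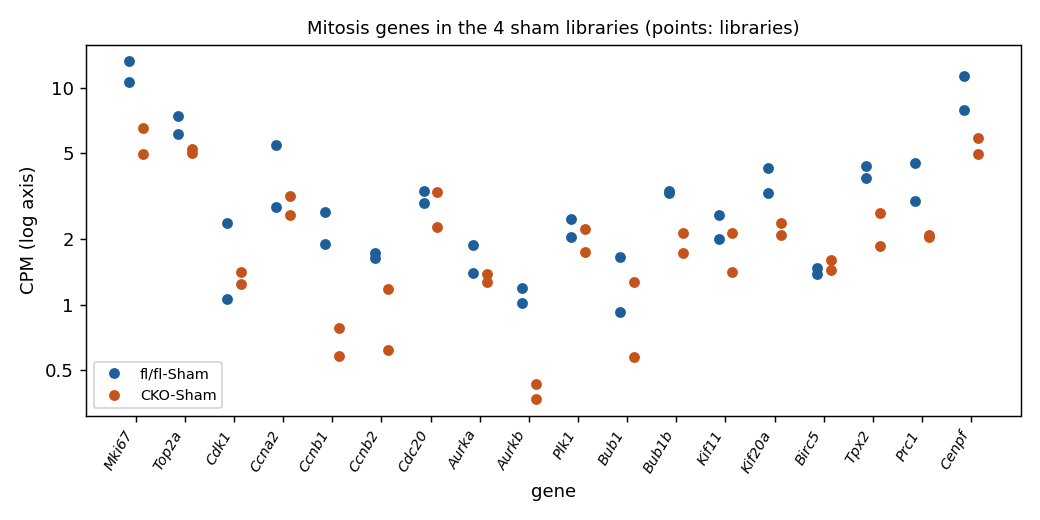
CPM (log axis) of the 18 mitosis genes in the 4 sham libraries, with 1 point per library, fl/fl-Sham in blue and CKO-Sham in orange. The 11 genes whose points do not overlap include Mki67, with 10.6 and 13.2 CPM against 4.96 and 6.49 CPM, and Ccnb1, with 1.89 and 2.68 CPM against 0.577 and 0.784 CPM.

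The lower level in CKO-Sham held under the settings tried for the median of the mitosis genes. With each library left out in turn the median lay between -0.54 and -0.85, and at most 3 of the 18 were positive. On log2(FPKM + 1), which understates changes of low genes, it was -0.18. Of 46 other mitosis genes, 38 were lower, 26 without overlap, with a median of -0.52, and 0 passed edgeR's test at an adjusted p under 0.05 (5 at an unadjusted p). Summed over the 18 members, the level was 72.3 and 60.2 CPM in fl/fl-Sham, 40.4 and 42.2 CPM in CKO-Sham, 96.0 and 59.9 CPM in fl/fl-MI, as well as 74.5 and 53.6 CPM in CKO-MI. Summed over 8 erythroid markers, it was 545 and 199 CPM in fl/fl-Sham, 78.5 and 106 CPM in CKO-Sham, 757 and 389 CPM in fl/fl-MI, as well as 278 and 380 CPM in CKO-MI. The CKO-Sham libraries were thus lowest and fl/fl-MI 1 highest in both sums. The sums went apart in CKO-MI, where replicate 1 lay above replicate 2 in the mitosis sum and below it in the erythroid sum. Hemoglobin genes gave nearly all of the erythroid sum. Alas2, the heme synthesis enzyme of erythroid cells, followed the same order at a lower level, with 11.3 and 3.68 CPM in fl/fl-Sham, 0.912 and 1.57 CPM in CKO-Sham, 12.02 and 7.74 CPM in fl/fl-MI, as well as 4.01 and 7.34 CPM in CKO-MI. All 5 erythroid markers tested were lower in CKO-Sham without overlap and at an unadjusted p under 0.05 in edgeR, with log2 fold changes of -2.60 to -1.84 and adjusted p = 1 in edgeR. Slc4a1 and Klf1, also markers of erythroid cells and their precursors, were at or below 0.664 CPM in every library. The part of erythroid cells or blood in the result was not tested. In the sham libraries the sums of cardiomyocyte (30248 to 35138 CPM), fibroblast (1398 to 1516 CPM) and macrophage markers (455 to 511 CPM) varied less. Within the fibroblast list Postn, a matrix protein of activated fibroblasts, had 73.8 and 69.4 CPM in fl/fl-Sham against 14.6 and 18.6 CPM in CKO-Sham, a log2 fold change of -2.11 with an unadjusted p under 0.05 in edgeR, and the 7 others had an unadjusted p over 0.05. Endothelial markers summed to 1752 and 1809 CPM in fl/fl-Sham and to 2134 and 1894 CPM in CKO-Sham, and 5 of the 8 were higher in CKO-Sham without overlap, where 21.6% of all genes were. The part of these cells in the result was not tested either.

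**Figure D5:**
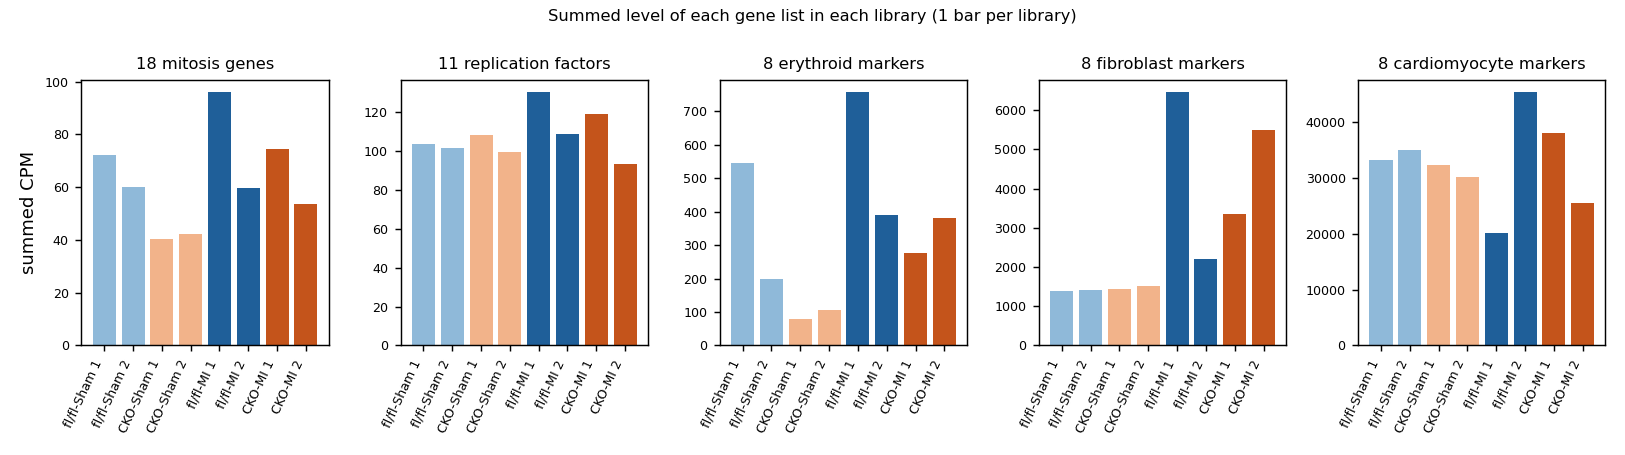
Summed CPM (y axis, from 0) of the 18 mitosis genes, the 11 replication factors and the erythroid, fibroblast and cardiomyocyte markers in each library, with 1 bar per library. The mitosis sum is highest in fl/fl-MI 1 (96.0 CPM) and lowest in the CKO-Sham libraries (40.4 and 42.2 CPM), the erythroid sum is too, and the fibroblast sum is highest in fl/fl-MI 1 (6451 CPM).

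The genotypes were then compared after MI. No member (0) passed edgeR's test at an adjusted p under 0.05, where 0.0% of all genes were called in either direction, and DESeq2 also called 0 members. At an unadjusted p under 0.05 in edgeR 1 member was lower and 0 higher, where 5.19% of all genes were lower and 3.12% higher. Of the 18 mitosis genes 13 had lower levels in CKO-MI, with a median log2 fold change of -0.27, and 10 of 11 replication factors did, with a median of -0.16. The direction in the mitosis genes rested on fl/fl-MI 1. Without that library 14 of the 18 were higher in CKO-MI and the median was 0.45, without fl/fl-MI 2 it was -0.55, without CKO-MI 1 it was -0.52 and without CKO-MI 2 it was -0.0056. In the replication factors it was -0.09 without fl/fl-MI 1, -0.29 without fl/fl-MI 2, -0.30 without CKO-MI 1 and -0.03 without CKO-MI 2. Cenpf, a kinetochore protein, was the member with the unadjusted p under 0.05, with 7.77 and 13.95 CPM in fl/fl-MI, as well as 6.57 and 4.15 CPM in CKO-MI. It had 11.3 and 7.94 CPM in fl/fl-Sham and 5.85 and 4.93 CPM in CKO-Sham, so that the libraries labelled CKO were the 4 lowest of the 8. Its log2 fold change between the MI groups was -1.02 (standard error 0.36, edgeR adjusted p = 0.57), past 2-fold, where 3.34% of all genes were lower by 2-fold at an unadjusted p under 0.05. It was -1.35 (adjusted p = 0.043 in edgeR) without fl/fl-MI 1 and -0.54 (adjusted p = 0.62 in edgeR) without fl/fl-MI 2. Without fl/fl-MI 1 Cdkn1a was also called lower in CKO-MI (-0.76, adjusted p = 0.020 in edgeR), a value that then rests on fl/fl-MI 2 alone. Cenpf and Cdkn1a were the 2 members called lower in that fit, in which 5.31% of all genes were called lower and 5.37% higher.

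Whether the MI effect differed between the genotypes was tested as an interaction. No member (0) passed edgeR's test at an adjusted p under 0.05, where 0.0% of all genes were called, and DESeq2 also called 0 members. At an unadjusted p under 0.05 in edgeR 2 members were higher and 0 lower, where 3.62% of all genes were higher and 4.6% lower. These were Ccnb1, with a log2 difference of 1.68 (standard error 0.62, edgeR adjusted p = 0.60), and Kif20a, with 1.16 (standard error 0.41, edgeR adjusted p = 0.60). Both were also past 2-fold, as were 1.41% of all genes in the higher direction at an unadjusted p under 0.05. The mitosis genes had a median log2 difference of 0.37, with 15 of 18 positive. It was 1.06 without fl/fl-MI 1, 0.04 without fl/fl-MI 2, 0.23 without CKO-MI 1 and 0.60 without CKO-MI 2. This contrast shares the CKO-Sham libraries with the comparison of the sham groups.

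Most mitosis genes differed in the same direction between the replicates of an MI group. The library labelled fl/fl-MI 1 lay above fl/fl-MI 2 for 17 of the 18, Cenpf being the exception, where 50.5% of all genes did. CKO-MI 1 lay above CKO-MI 2 for 15 of the 18 and for 11 of 11 replication factors, where 49.0% of all genes did. In fl/fl-Sham replicate 1 was above replicate 2 for 12 of 18 (51.1% of all genes), and in CKO-Sham for 6 of 18 (50.5%). Of the 18, 11 were highest in fl/fl-MI 1, where 14.2% of all genes were, and 32 of the 46 other mitosis genes were too. Other markers differed between these libraries as well. Fibroblast markers summed to 6451 CPM in fl/fl-MI 1 and 2210 CPM in fl/fl-MI 2, and to 3359 CPM in CKO-MI 1 and 5497 CPM in CKO-MI 2. Macrophage markers summed to 1176 and 880 CPM in fl/fl-MI, as well as 471 and 754 CPM in CKO-MI, and cardiomyocyte markers to 20238 and 45377 CPM in fl/fl-MI, as well as 38093 and 25578 CPM in CKO-MI. In fl/fl-MI the library with more mitosis transcripts had more fibroblast and macrophage and less cardiomyocyte transcripts, and in CKO-MI it had less fibroblast and macrophage and more cardiomyocyte transcripts. The part of the makeup of cells in these differences was not tested.

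The other genes of the pathway were read from lists of 44 S phase genes, 46 mitosis genes, 29 G1 and CDK pathway genes and 12 p53 targets, in MI against sham over both genotypes, where 19.2% of all genes were called higher and 14.8% lower. Of the 46 other mitosis genes 5 were called higher and 0 lower in edgeR, with 41 of 46 positive and a median log2 fold change of 0.50. They included Cks2, a CDK subunit (1.19), Racgap1, a regulator of the cleavage furrow (0.81), and Ube2c, a ubiquitin-conjugating enzyme of anaphase (1.09). Of the 43 other S phase genes tested 2 were called higher and 3 lower, with a median of -0.05. The DNA polymerase subunits went apart, with Pola1 at 0.82 and Pold1 at -0.75, and the licensing inhibitor Gmnn was at -0.79. Of the 29 G1 and CDK pathway genes 8 were called higher and 3 lower. Among them were E2f3 (1.41), the CDK inhibitor Cdkn1c (-1.86) and the kinase Cdk2 (-0.87). Of the 12 p53 targets 5 were called higher and 1 lower, with Zmat3 at 1.28, Phlda3 at 1.30 and Sesn2 at 0.74, while the p53 target Cdkn1a had the value of 0.07 given above.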

How the data were processed

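Poly(A) RNA of 8 libraries of myocardium was sequenced by the authors as paired-end reads of 150 bases, and reads were trimmed with cutadapt 1.9 per the submitters' processing notes. Aligner, counting tool and annotation release are not given in the sources used here. Gene identifiers matched GENCODE M21 on GRCm38 for 99.7% of genes, as did the start and end of 90.8% of genes and 36 of the 38 members. The authors deposited whole-number counts per gene without normalization, and FPKM values normalized to length and library size. Counts were taken as about 4 per read pair (18455437 to 22029393 pairs per library), a factor that the sources used here do not state. The transcript table, with counts and FPKM of the same kind, was used for Cdkn2a only. Samples were grouped by their labels.

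Genes with a mean of at least 20 counts over the libraries (17612 genes) were tested with the quasi-likelihood test of edgeR 4.0.16 (R 4.3.3), with TMM normalization, all 8 libraries in 1 fit and a mean per group. Standard errors were the log2 fold change divided by the square root of F, and calls were made at a Benjamini-Hochberg adjusted p under 0.05 over all genes. Alternatives were RLE size factors, mitochondrial genes left out, a filter of mean FPKM at or above 0.5, no filter, DESeq2 1.42.0, counts divided by 4, limma 3.58.1 on log2(FPKM + 1) and log2(FPKM + 0.1), each library left out in turn, a block for the replicate number, a fit of only the 4 libraries compared, and p under 0.05 with 2-fold. A library left alone in its group was taken to vary as those of other groups do. The scripts were tested on simulated data.

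The members and gene lists were chosen with earlier results of these data known. Values in every library are given for the members of the groups of 3, Mki67, Top2a and the 6 members with the smallest p after MI among the replication factors and among the mitosis genes. Members with an unadjusted p under 0.05 are named in genotype comparisons, and 3 genes per list of other pathway genes. Lists of endothelial, smooth muscle and pericyte, lymphocyte and neutrophil markers summed to 646 to 2134, 531 to 1491, 7.59 to 13.5 and 6.06 to 13.9 CPM per library. Python 3.11.15 and pandas 2.3.3 handled the tables.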

Additional observations from a re-analysis of the deposited data

Results flagged for a closer look

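Kif20a, a kinesin of cytokinesis, was set apart because MI went with opposite directions in the 2 genotypes as labelled. Both fl/fl-MI libraries lay below both fl/fl-Sham libraries and both CKO-MI libraries lay above both CKO-Sham libraries, with an interaction log2 difference of 1.16 (standard error 0.41, edgeR, Benjamini-Hochberg adjusted p = 0.60). With each library left out in turn the difference lay between 0.96 and 1.36, and the adjusted p in edgeR between 0.16 and 1.0. The Esr1 level went against the labels of 3 of the 8 libraries in this contrast, and the part of the labels in the result was not tested.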

How the results depend on the processing

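For MI over both genotypes, 7 members were called higher in DESeq2 (21.8% of all genes), 20 in limma on log2(FPKM + 1) (41.6%) and 18 on log2(FPKM + 0.1) (42.8%). Within fl/fl these FPKM settings called 8 and 8 (26.9% and 28.5% of all genes), and the fit of only the libraries compared called 0 (0.017%). Within CKO, 2 were called higher and 1, Cdkn2a, lower without a filter (5.68% and 3.84% of all genes), 5 higher in DESeq2 (14.9%), 4 and 10 in the FPKM settings (24.5% and 26.5%), and 3 in the fit of only the libraries compared (15.6%). The rule of p under 0.05 and 2-fold called 7 higher within CKO (7.73% of all genes) and 1 lower between the MI groups (3.34%). It also called 4 lower between the sham groups (0.619%) and 2 higher in the interaction (1.41%). With each library left out in turn, the number of members called higher changed for MI over both genotypes and within each genotype. The number called lower changed for MI over both genotypes and between the MI groups. Neither number changed between the sham groups or in the interaction. The share of all genes called changed in these fits as well. The causes were not tested.

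Values that changed sign were those of Ccnd3 after MI, 0.013 without a filter, 0.43 on log2(FPKM + 1) and 0.50 on log2(FPKM + 0.1), Plk1, 0.0049 on log2(FPKM + 1), and Ccne2, -0.0084 with the replicate block. With each library left out in turn, the change after MI ran from -0.37 to 0.35 for Ccne2, from -0.10 to 0.19 for Ccnd1, from -0.13 to 0.018 for Ccnd3 and from -0.26 to 0.27 for Cdkn1a. The change of Mki67 missed the threshold at 0.80 with RLE size factors, 0.82 with mitochondrial genes left out and 0.78 at a mean FPKM of at least 0.5.

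Over all genes, same-numbered libraries did not deviate together (correlations of -0.16 to 0.04 over the pairs of groups). This cannot exclude that the numbers pair samples, and most mitosis genes lay higher in replicate 1 of both MI groups. With the replicate number as a block, 2 members were called higher after MI over both genotypes, Mki67 being lost (0.76). The replicate block changed no other count of members called.

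Small changes were often missed in simulated data for MI over both genotypes, with 2 libraries per group. There 200 genes were changed, none from those with the lowest counts, so that recovery at the lowest counts was not tested. The share of changed genes was far below the share called in the data. Each simulated gene also had the same spread in all groups, while in the data replicates differed more in MI than in sham groups. Recovery in the data may thus differ. Among 17612 genes, edgeR called 2 unchanged genes and recovered 6 of 50 changes of 1.5-fold and 35 of 50 of 2-fold. DESeq2 recovered 8 and 39 of them and called 40 unchanged genes.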
